A study of Mus musculus with 138 samples.

Results

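The oocyte Nlrp genes encode NLRP proteins, which carry a nucleotide-binding NACHT domain and leucine-rich repeats. The 10 members described here were taken by gene symbol and are Nlrp2, Nlrp4a, Nlrp4b, Nlrp4c, Nlrp4e, Nlrp4f, Nlrp9a, Nlrp9b, Nlrp9c and Nlrp14. All 10 were found among the 25900 genes of the 2 deposited count tables. The rule that picks them uses no measured value, but the members were chosen with earlier results of these data known. The study asked how loss of SMARCA5, the ATPase of the ISWI chromatin remodellers, changes the transcripts of 2-cell mouse embryos, a stage when the genome of the embryo is switched on.

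Polyadenylated RNA was sequenced from the wells of plates, as the RNA side of scNMT-seq, a method that pairs RNA with methylation and accessibility of the DNA. Embryos labelled Smarca5 +/- (mat KO) came, per the design text, from mothers that lacked Smarca5 in the oocyte and wild-type fathers, so that the embryo itself was heterozygous. They are called maternal deletion here, with 28 libraries (13 of replicate 1 and 15 of replicate 2). Embryos labelled Smarca5 +/+ are called wild type, with 22 libraries (8 of replicate 1 and 14 of replicate 2). The titles of both groups name matKO females, and the embryo genotype differs with the group, so maternal and embryonic genotype cannot be told apart. The Cre or promoter behind the deletion and the age of the females are not given in the sources used here. In the second experiment SMARCA5 protein was removed from wild-type embryos by TrimAway, in which TRIM21 supplied to the zygote sends an antibody-bound protein to degradation. Embryos injected with anti-SMARCA5 (31 libraries, 17 of replicate 1, 7 of replicate 2 and 7 of replicate 3) were set against embryos injected with IgG (20 libraries, 10 each of replicates 1 and 3) and against embryos labelled No injection ctrl (15 libraries, 10 of replicate 1 and 5 of replicate 3), at least a day after injection. A replicate number stands for a pool of embryos of several matings or a pool of injected embryos, which the design text calls technical replicates. The p-values therefore measure the spread between wells of a few pools.

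Total counts ran from 109007 to 12004992 in the 116 libraries kept, with medians of 545264.5 in wild type and 1618485.5 in maternal deletion. Levels are given as CPM, the usual scaling of a gene's count by the total of its library. In the deletion experiment the 2 replicates were on different sequencing lanes. Smarca5 itself lay between 158 and 839 CPM in wild type (median 443) and between 2.99 and 349 CPM in maternal deletion (median 82.2). Of replicate 2, 1 library labelled maternal deletion (well A04) held 349 CPM of Smarca5 and 24.5 CPM of Gdf9, an oocyte growth factor transcript whose median was 4377 CPM in that group. Conversely, 2 libraries labelled wild type (wells G05 and H05) held 158 and 209 CPM of Smarca5 and 645 and 350 CPM of Gdf9, against a wild-type median of 52.0 CPM. Trim21 counts were 0 in 1 of the 31 anti-SMARCA5 libraries (well C02 of replicate 2), in all 10 IgG libraries of replicate 1 and in 2 of the 10 IgG libraries of replicate 3. The libraries labelled with these wells were kept, and results without A04, G05, H05 or C02 are given where they differ. Wells A04, G05 and H05 stand out by an oocyte transcript, and the members are oocyte transcripts too. Leaving out those 3 can therefore raise the members' difference by selection, and is no independent check of it. Markers of cumulus and granulosa cells, which surround the oocyte, summed to 0 to 248 CPM in wild type, 0.684 to 340 CPM in maternal deletion and at most 175 CPM in a TrimAway library, and the median was 0 for 9 to 13 of the 14 markers in each group.

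Many NLRP proteins act as innate immune sensors that build inflammasomes. A rodent-expanded branch of the family is instead transcribed in the growing oocyte, stored in the egg and lost as the maternal RNA pool is cleared around the 2-cell stage. NLRP5, also called MATER, is the best known and belongs to the subcortical maternal complex, a protein lattice under the egg cortex that preimplantation development needs. NLRP4F has also been placed in this complex. NLRP2 and NLRP14 are products of maternal-effect genes, NLRP4E has been linked to early cleavage, and NLRP9B is known for antiviral defence in the gut besides its expression in oocytes. Little is known of single functions for NLRP4A, NLRP4B, NLRP4C, NLRP9A and NLRP9C.

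In the coordinates of the deposited tables (GRCm38), 9 members lie on chromosome 7 and Nlrp4f on chromosome 13 (65177111 to 65205716, minus strand). Nlrp4a (26435113 to 26476142, plus), Nlrp9a (26535023 to 26575615, plus) and Nlrp9c (26322473 to 26403700, minus) are neighbours, whereas Nlrp14 stands apart (107166990 to 107198102, plus). Nlrp2 spans 5298554 to 5351035 (minus), Nlrp4c 6045161 to 6105149 (plus), Nlrp4b 10687793 to 10730168 (plus), Nlrp9b 20008023 to 20073306 (plus) and Nlrp4e 23301275 to 23362270 (plus). The coding sequences of Nlrp4c and Nlrp4e were identical at 93.9% of aligned bases, and those of Nlrp9a and Nlrp9c at 87.4%. How reads that match several genes, and reads of either strand, were counted is not given in the sources used here. Of all stretches of 50 bases of a member's transcript, those also present in another gene made up 36.9% for Nlrp4e, 11.9% for Nlrp4c, 7.13% for Nlrp4f and 4.99% to 6.54% for the Nlrp9 genes, but 0% for Nlrp14 and Nlrp4b. The counts of Nlrp4e and Nlrp4c are therefore the least certain. Nlrp2, Nlrp4b, Nlrp4e and Nlrp9b also overlap other annotated genes, all of them pseudogenes, an rRNA gene or an intronic transcript except the coding gene Gm5065 opposite Nlrp2. The longest identical coding stretch between 2 members, within which a read cannot be assigned, was 129 bases long and is shown because it ties the counts of a pair of Nlrp9 genes. It lies in 1 exon at chr7:26557547-26557675 (plus) for Nlrp9a and at chr7:20023428-20023556 (plus) for Nlrp9b:
Nlrp9a and Nlrp9b: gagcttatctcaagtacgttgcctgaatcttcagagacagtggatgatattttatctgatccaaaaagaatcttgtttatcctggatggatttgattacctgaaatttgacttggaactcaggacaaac

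The members' promoters are shown because several members moved together below. RefSeq entries (GRCm38.p6) were matched for 9 of the 10 members, and the 120 bases before the start were read. The windows of 6 members that hold the motif below are printed, 1 start for each. After the windows had been read, the short motif CCAAT was counted on both strands (ATTGG on the other), with matches in capitals. Of 11 member windows, 7 windows of 6 members held at least 1 match, against 21.3% of all 32841 windows, and 4.6% of all windows held at least 2. The windows of Nlrp2 (chr7:5351036-5351155, minus), the second start of Nlrp4a (chr7:26435494-26435613, plus), Nlrp4b (chr7:10687673-10687792, plus), Nlrp4c (chr7:6045041-6045160, plus), Nlrp9a (chr7:26534903-26535022, plus) and Nlrp9c (chr7:26403701-26403820, minus) read as follows:
Nlrp2: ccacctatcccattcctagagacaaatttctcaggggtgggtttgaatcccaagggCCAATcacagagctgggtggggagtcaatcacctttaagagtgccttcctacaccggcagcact
Nlrp4a: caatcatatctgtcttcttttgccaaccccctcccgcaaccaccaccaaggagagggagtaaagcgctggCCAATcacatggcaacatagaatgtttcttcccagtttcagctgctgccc
Nlrp4b: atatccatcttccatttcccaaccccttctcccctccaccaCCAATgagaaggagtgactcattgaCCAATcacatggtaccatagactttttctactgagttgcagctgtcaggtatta
Nlrp4c: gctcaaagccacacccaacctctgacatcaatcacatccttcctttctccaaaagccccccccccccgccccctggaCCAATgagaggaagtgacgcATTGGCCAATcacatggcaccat
Nlrp9a: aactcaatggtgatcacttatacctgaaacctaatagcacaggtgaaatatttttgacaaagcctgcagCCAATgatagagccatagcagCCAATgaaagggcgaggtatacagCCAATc
Nlrp9c: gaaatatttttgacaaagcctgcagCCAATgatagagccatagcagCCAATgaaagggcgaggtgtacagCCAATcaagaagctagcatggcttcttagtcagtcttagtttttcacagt

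The Nlrp9a and Nlrp9c windows are the same stretch moved by 44 bases, with 75 of 76 overlapping letters equal (98.7%), and each held 3 matches. Neither letter string was in the windows of Nlrp4e, Nlrp4f and Nlrp9b or in that of the first Nlrp4a start. The motif was picked from these same windows, which include near copies of each other, so its share is no test of enrichment. It also did not follow the calls in maternal deletion below. Nlrp2 and Nlrp4c held it and were not called, while Nlrp4e, Nlrp4f and Nlrp9b were called without it in their windows. These matches are a description of letters, and nothing here measured binding to them.

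All 10 members were read in every group, at very different levels. Per kilobase of exon, Nlrp9c was highest in wild type (mean 86.6 CPM per kb), followed by Nlrp4f (50.5), Nlrp14 (37.4) and Nlrp9a (17.8), and Nlrp4c was lowest (2.61). The same 4 genes led in maternal deletion, with Nlrp9c at 159, Nlrp4f at 148, Nlrp14 at 107 and Nlrp9a at 62.2 CPM per kb. In the TrimAway experiment Nlrp14 came first in each group, at 123 CPM per kb in uninjected, 142 in IgG and 167 in anti-SMARCA5 embryos, but in the anti-SMARCA5 libraries of replicate 3 Nlrp4f (227) was above it (209). Of the members' summed CPM, Nlrp9c made up 48.0% in wild type and 23.5% in uninjected embryos, and Nlrp14 12.4% and 38.3%. The experiments were sequenced on different lanes and deposited as separate tables, so control embryos of one and the other are set side by side here without a test.

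The summed CPM of the 10 members ran from 147 to 2879 in wild type (median 800) and from 349 to 6912 in maternal deletion (median 2387). It ran from 445 to 1920 in uninjected (median 1058), from 696 to 2837 in IgG (median 1039) and from 469 to 5564 in anti-SMARCA5 embryos (median 1300). The ranges of all groups overlap, and the sum differs between collections of the same group. Wild-type libraries of replicate 1 held 1207 to 2879 CPM (median 1913) and those of replicate 2 held 147 to 1852 CPM (median 458).

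**Figure D1:**
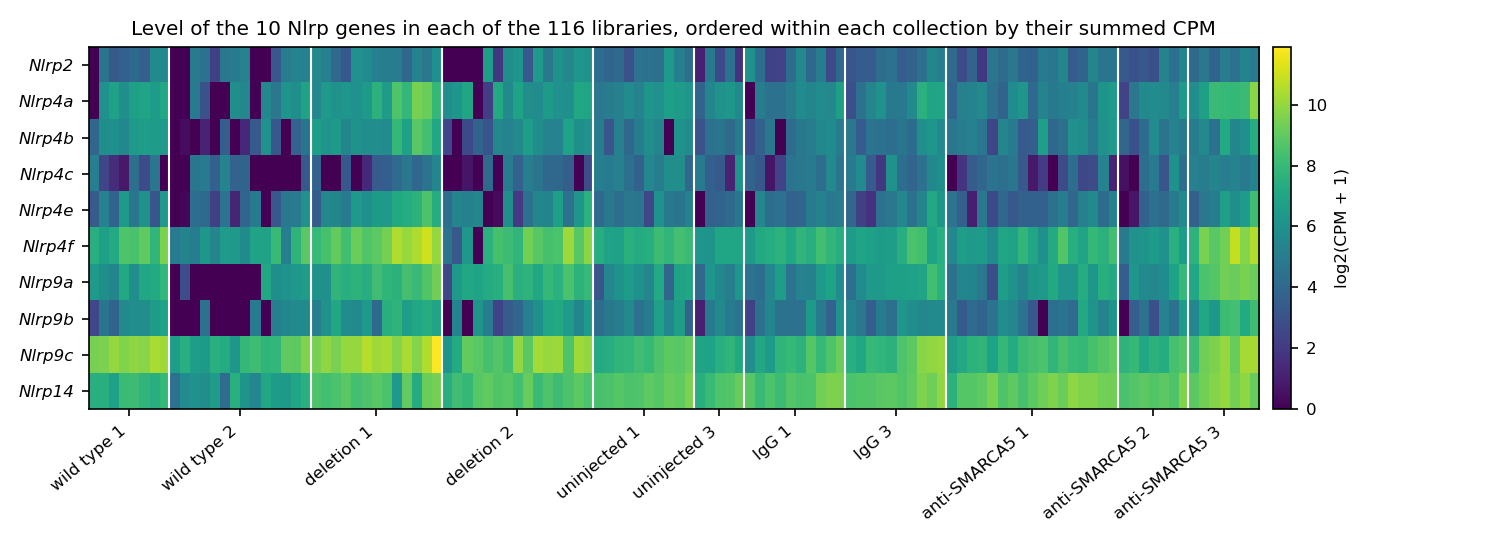
Heat map of log2(CPM + 1) for the 10 members (lines) in the 116 libraries (columns), grouped by embryo group and replicate number and ordered within these by the members' summed CPM. Summed levels reach 5564 CPM in the anti-SMARCA5 libraries of replicate 3 and 6912 CPM in maternal deletion, Nlrp4c stays low in maternal deletion (median 10.9 CPM), and 8 of 14 wild-type libraries of replicate 2 hold 0 counts of Nlrp9a.

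Maternal deletion embryos held more RNA of most of the family. By edgeR's quasi-likelihood test with Benjamini-Hochberg adjustment, 8 of the 10 members were higher than in wild type and none was lower, with a median log2 fold change of 1.67 over the 10. Across all 8518 genes tested, 56.6% changed, 30.3% in the upward direction, and the median log2 fold change was 0.18, so a change as such was common in this comparison. The median of all genes was -0.04 with scaling to total counts only, which also called 8 members. The values of a well cannot tell fewer cells holding a transcript from less of it per cell. CPM are shares of a library, not amounts per embryo.

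Nlrp14, whose loss from the egg halts early development, changed with the smallest error. It lay at 18.1 CPM in the lowest wild-type library, 120 at the median and 285 in the highest, and in maternal deletion at 82.7, 377 and 670 CPM. All but 1 deletion library lay above the wild-type median, and 23 of the 28 lay above the highest wild-type library. The log2 fold change was 1.71 ± 0.28 (SE; edgeR adjusted p = 1.95e-06). Both collections gave a rise, by 1.04 in replicate 1 (adjusted p = 0.0121) and 2.43 in replicate 2 (adjusted p = 1.67e-06) on the log2 scale, where the deletion medians were 377 and 379 CPM and the wild-type medians 202 and 78.5 CPM. That difference between collections was not called over all libraries (interaction 1.25, adjusted p = 0.152, with 0.763% of genes called). It was called without wells A04, G05 and H05 (1.54, adjusted p = 0.0168), where 12.6% of genes were called. Those wells stood out by an oocyte transcript, so that call is no independent support.

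**Figure D2:**
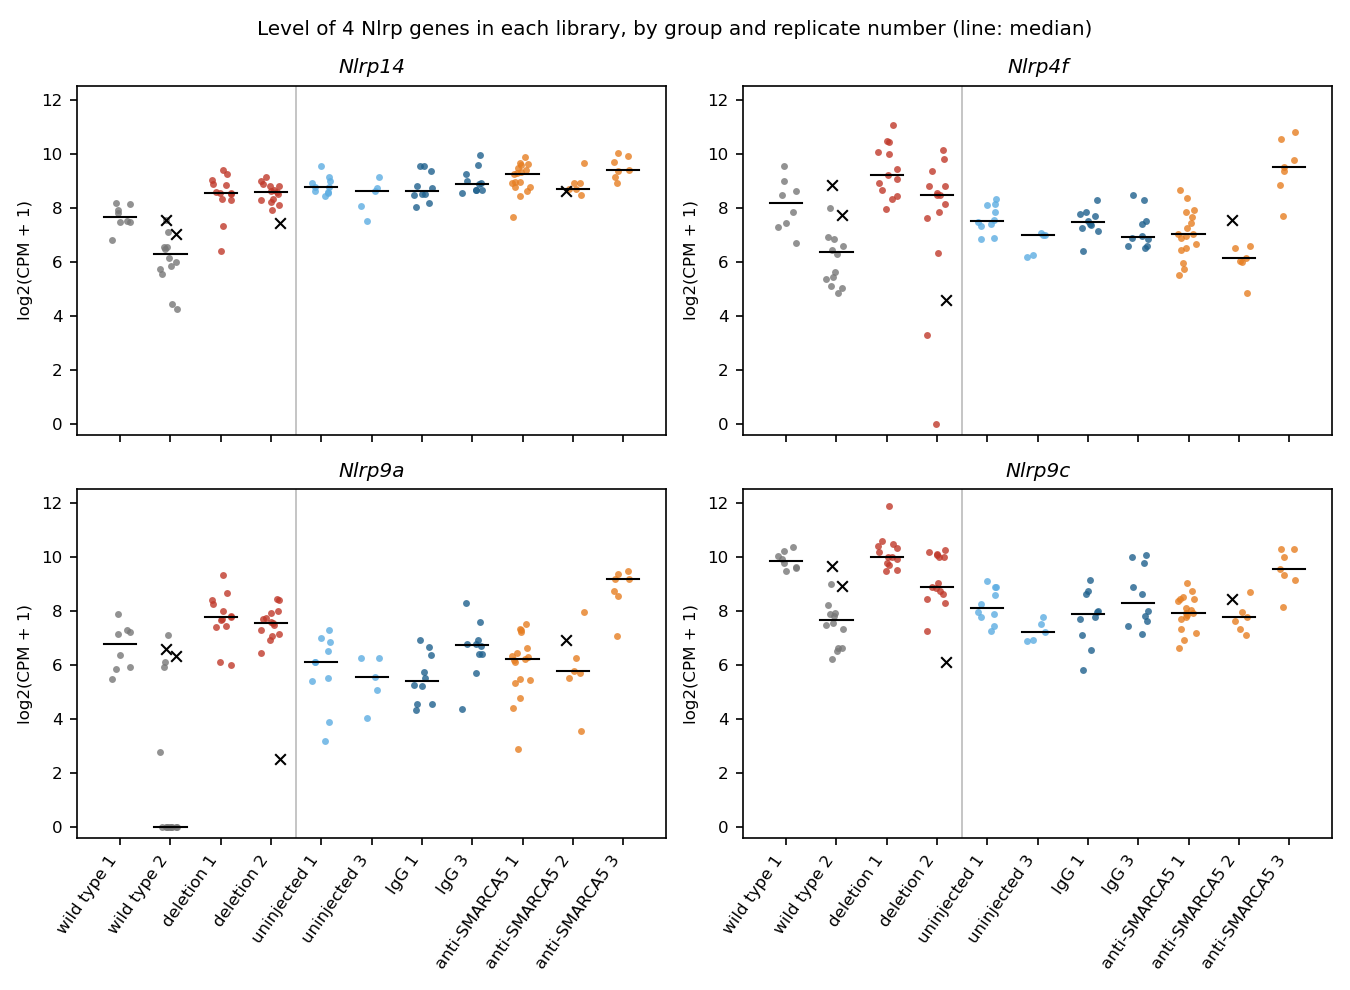
Level of Nlrp14, Nlrp4f, Nlrp9a and Nlrp9c in each library on the log2(CPM + 1) scale, by group and replicate number, with the median as a line and a black cross on each of the 4 libraries that go against their label. Nlrp14 is above the highest wild-type library in 23 of 28 deletion libraries, while Nlrp4f, Nlrp9a and Nlrp9c overlap more widely between groups.

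The 3 Nlrp9 genes rose together. Nlrp9a lay between 0 and 236 CPM in wild type (median 57.8) and between 4.77 and 638 CPM in maternal deletion (median 203), with 27 of 28 deletion libraries above the wild-type median and 9 above the highest. Its log2 fold change was 2.05 ± 0.57 (adjusted p = 0.00215), the largest of the family. In replicate 2, 8 of 14 wild-type libraries held 0 counts of Nlrp9a. One of these libraries was the deepest of all, with 12004992 counts, where 0 counts allow up to 0.25 CPM (counting error only). The shallowest held 109007 counts and allows up to 27.5 CPM, whereas deletion libraries of replicate 2 held at least 1018783 counts. The zeros of shallow libraries thus leave room for a low level. Nlrp9b had 0 counts in 8 wild-type libraries of replicate 2 as well, and ran from 0 to 117 CPM (median 22.1) in wild type and from 0 to 209 CPM (median 64.7) in maternal deletion (log2 fold change 1.58 ± 0.63, adjusted p = 0.0296). Nlrp9c, the most abundant member per length, ran from 74.3 to 1322 CPM (median 390) and from 67.8 to 3809 CPM (median 989). It was higher by 1.12 ± 0.36 on the log2 scale (adjusted p = 0.00783), with only 4 of 28 deletion libraries above the highest wild-type library. Within collections the Nlrp9c call held in replicate 2 (1.67, adjusted p = 0.00251) and not in replicate 1 (0.64, adjusted p = 0.107).

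Among the Nlrp4 genes, Nlrp4f lay between 28.0 and 747 CPM in wild type (median 116) and between 0 and 2124 CPM in maternal deletion (median 422). It rose by 1.78 ± 0.47 on the log2 scale (adjusted p = 0.0014), and was called in replicate 1 alone (1.42, adjusted p = 0.00667) and in replicate 2 alone (2.03, adjusted p = 0.0103). The spread was wide, and 1 deletion library of 7236695 counts (replicate 2, well D03) held 0 counts of Nlrp4f and Nlrp4a beside 448 CPM of Nlrp14. Nlrp4e (medians 17.1 and 44.6 CPM, log2 fold change 1.81 ± 0.56, adjusted p = 0.00537), Nlrp4b (11.5 and 57.5 CPM, 1.71 ± 0.63, adjusted p = 0.0194) and Nlrp4a (51.9 and 84.1 CPM, 1.64 ± 0.56, adjusted p = 0.0108) rose too. For Nlrp4a, 6 of 13 deletion libraries of replicate 1 exceeded the highest of the 8 wild-type libraries and the other 7 lay at or below their median, so that the replicate 1 medians were 94.4 CPM in the deletion and 99.1 CPM in wild type. The highest, in well E09, held 697 CPM of Nlrp4a and 1369 CPM of Nlrp4f. Its 158 CPM of Nlrp14 lay below the replicate 1 wild-type median, so single libraries did not carry all members in 1 proportion.

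The remaining pair did not pass. Nlrp2 lay between 0 and 49.3 CPM in wild type (median 18.4) and between 0 and 98.0 CPM in maternal deletion (median 34.2), with a log2 fold change of 1.18 ± 0.59 (adjusted p = 0.08). It was called with DESeq2 (adjusted p = 0.0375), which called 61.2% of genes. It was also called without wells A04, G05 and H05 (1.35, adjusted p = 0.0451), where 60.1% of genes and 9 members were called. Those wells stood out by an oocyte transcript, so that call is no independent support. Nlrp4c was near the limit of detection, with 3 counts or fewer in 14 of 22 wild-type and 11 of 28 deletion libraries, and its log2 fold change was 0.52 ± 0.71 (adjusted p = 0.542). The number of members called was 6 of 9 tested in replicate 1 alone (43.8% of genes called), 5 in replicate 2 alone (39.9%), and 4 (Nlrp14, Nlrp4f, Nlrp9a and Nlrp9c) among libraries of at least 500000 counts (41.3%). In this last setting the median log2 fold change was 1.69 with all 10 positive.

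**Figure D3:**
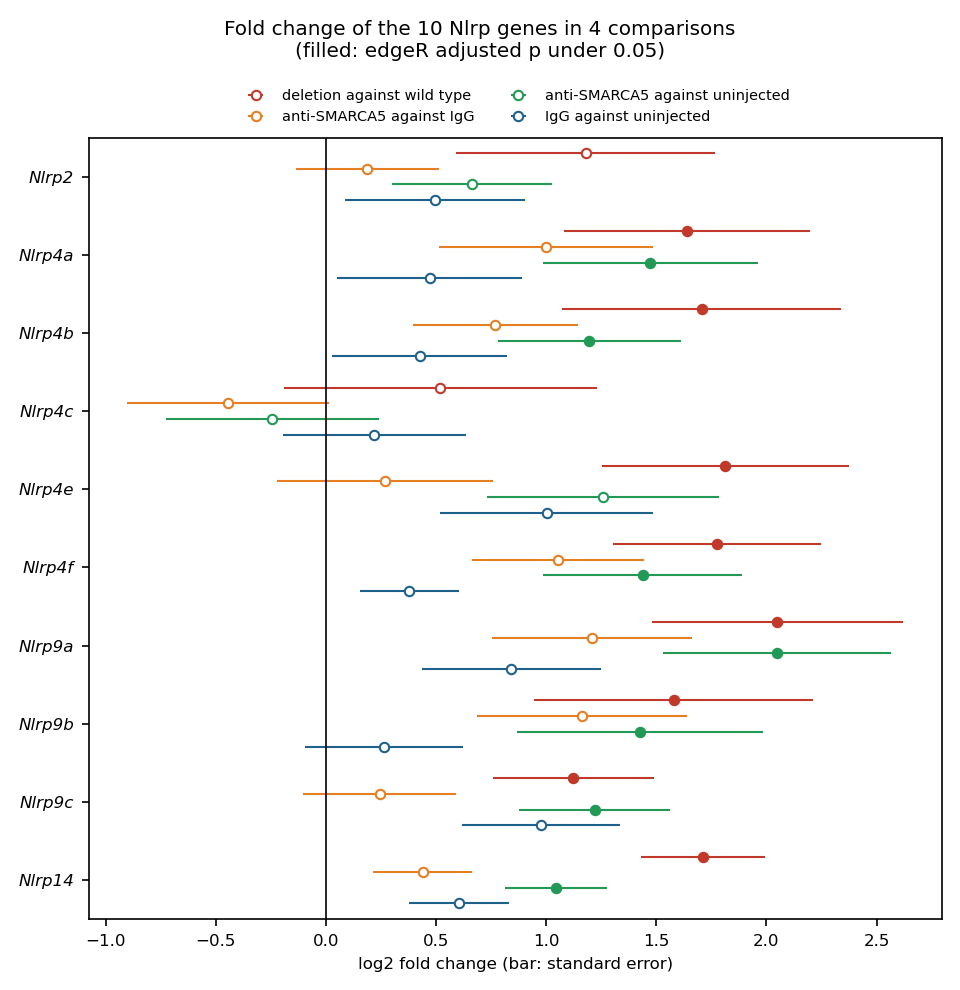
Log2 fold change (points) ± SE (bars) of the 10 members in the 4 comparisons, with filled points for an edgeR adjusted p under 0.05. Filled points number 8 for maternal deletion against wild type (56.6% of all genes called) and 0 for anti-SMARCA5 against IgG (3.03%). They number 7 for anti-SMARCA5 against uninjected (27.9%) and 0 for IgG against uninjected (0.0%).

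Other egg transcripts moved in the same comparison, in which 2580 of all 8518 genes (30.3%) were higher and 2245 lower. Of 27 tested transcripts of a list of maternal RNAs (zona pellucida, oocyte growth factor and translation control genes among them), 19 were higher and none lower in maternal deletion, with a median log2 fold change of 1.60. Of the 5 tested genes of the subcortical maternal complex 4 were higher, namely Nlrp5 (2.78, adjusted p = 4.8e-08), Ooep (2.95, adjusted p = 1.88e-05), Tle6 (2.25, adjusted p = 2.11e-07) and Padi6 (2.16, adjusted p = 2.9e-07), while Zbed3 (0.85, adjusted p = 0.0794) did not pass. Genes of the 2-cell stage went the other way, with 10 of 13 tested lower, none higher and a median of -1.91. The summed level of these 2-cell genes was 759 to 2876 CPM in wild type and 19.2 to 3249 CPM in maternal deletion (medians 1419 and 303). The library of well A04, which has the lowest Nlrp sum of its group (349 CPM), held 1736 CPM of them, while wells G05 and H05 held Nlrp sums of 1852 and 1099 CPM against a replicate 2 wild-type median of 458. How far a change in embryo stage or in the rest of the RNA pool moves with the Nlrp values was not tested.

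Genes around the family in immunity and in oocyte control gave no common direction. Of 9 inflammasome partners 2 were tested, and Nek7, a kinase that binds NLRP3, was higher (2.20, adjusted p = 0.000788), but not Txnip (1.26, adjusted p = 0.092), and 7 of the 9 had a median of 0 CPM in both groups. Of the other NLR genes 3 were tested: besides Nlrp5, the pseudogene Nlrp4g was higher (1.60, adjusted p = 0.0178) and Nlrc4 was not called (0.69, adjusted p = 0.402). Nlrp4g shares stretches of its transcript with Nlrp4f, so part of its counts may belong to Nlrp4f or the reverse. Of 4 tested oocyte transcription factors, Nobox (2.48, adjusted p = 0.000487) and Foxo3 (0.54, adjusted p = 0.0286) were higher and Taf4b lower (-0.78, adjusted p = 0.00261). The Foxo3 value turned to -0.20 (adjusted p = 0.531) without replicate 2. Among genes linked to NLRP14 function, Uhrf1, a DNA methylation cofactor that NLRP14 binds, was higher (2.59, adjusted p = 1.38e-07) and Dppa3, a maternal factor that counters UHRF1, lower (-1.50, adjusted p = 5.35e-05).

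**Figure D4:**
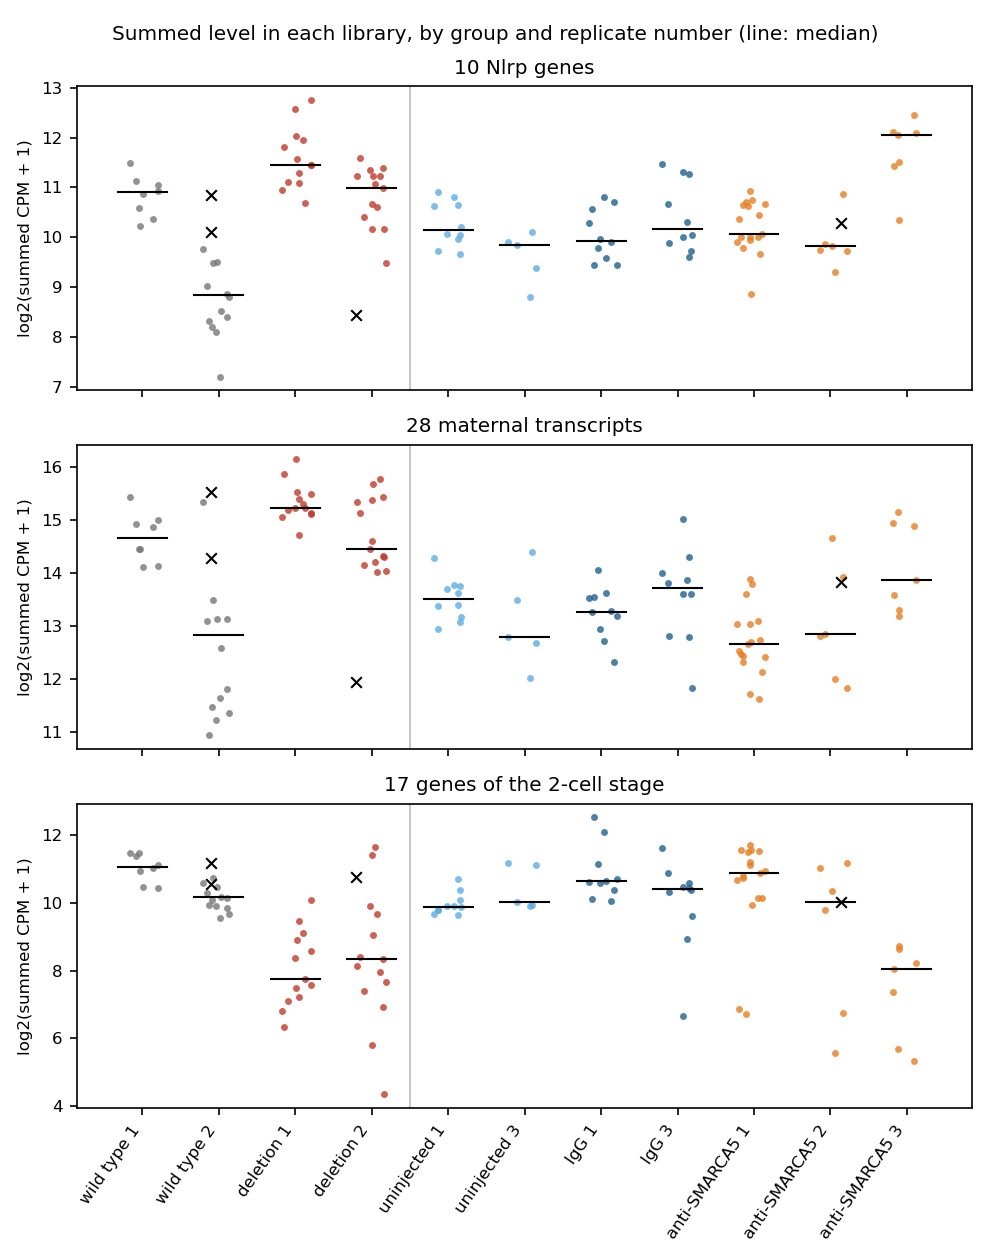
Summed CPM per library, as log2(sum + 1), of the 10 Nlrp members, the 28 listed maternal transcripts and the 17 listed 2-cell stage genes in the tables, by group and replicate number. Anti-SMARCA5 libraries of replicate 3 have Nlrp sums of 1300 to 5564 CPM and 2-cell gene sums of 39.3 to 422 CPM.

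When SMARCA5 protein was removed from the zygote on, the family did not pass the test against IgG in the fit without the replicate number. None of the 10 members was called by edgeR between anti-SMARCA5 and IgG embryos, against 3.03% of 10447 genes. An unadjusted p under 0.05 was found for 5 members and for 2762 of all genes. DESeq2 called 2 members (Nlrp4f and Nlrp9a) and 12.3% of genes. The median log2 fold change of the members was 0.60 and that of all genes 0.04. Nlrp14 lay at 256, 434 and 978 CPM (lowest, median and highest) in IgG and at 202, 560 and 1044 CPM in anti-SMARCA5 embryos (0.44, adjusted p = 0.201). Nlrp9a lay at 19.0, 82.7 and 315 CPM against 6.34, 78.6 and 719 CPM (1.21, adjusted p = 0.0933), and Nlrp4f at 83.7, 165 and 357 CPM against 28.1, 131 and 1789 CPM (1.05, adjusted p = 0.0907). Medians of these last 2 genes were no higher than in IgG, and the high values came from a subset of libraries. With the replicate number as a block, 4 members were called (Nlrp9a 1.38, adjusted p = 0.00666; Nlrp4f 0.97, adjusted p = 0.0225; Nlrp4b 1.06, adjusted p = 0.0312; Nlrp9b 1.14, adjusted p = 0.0435), against 25.8% of all genes. Of all genes called, 181 of 317 were higher with TMM scaling and 17 of 64 with total counts only.

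The effect was tested for a difference between the Smarca5 deletion and anti-SMARCA5 TrimAway in 1 fit of 4 groups. Only Nlrp14 of the 10 differed, with a log2 fold change larger by 1.19 ± 0.35 in the deletion (adjusted p = 0.0112), where 19.2% of 12035 genes differed. Its median was 120 CPM in wild type and 377 CPM in maternal deletion, against 434 CPM in IgG and 560 CPM in anti-SMARCA5 embryos. The larger fold change thus starts from a lower control level on other lanes. The part of that level in the difference was not tested. The other 9 were not called, and their fold changes against IgG and against wild type are therefore not shown to differ.

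Against uninjected embryos, 7 members were higher in anti-SMARCA5 embryos and none lower, against 27.9% of 10750 genes changed (17.5% in the upward direction), with a median log2 fold change of 1.24 over the 10 and 0.13 over all genes. The same anti-SMARCA5 libraries enter this and the previous comparison, so they are not independent. Nlrp14 lay at 183, 419 and 753 CPM (lowest, median and highest) in uninjected and at 202, 560 and 1044 CPM in anti-SMARCA5 embryos (1.05 ± 0.23, adjusted p = 0.00195). Nlrp9a lay at 8.08, 67.2 and 155 CPM against 6.34, 78.6 and 719 CPM (2.05 ± 0.52, adjusted p = 0.0045). The groups overlapped for both genes. Nlrp9c (1.22 ± 0.34, adjusted p = 0.00888), Nlrp4f (1.44 ± 0.45, adjusted p = 0.0165), Nlrp4a (1.47 ± 0.49, adjusted p = 0.0219), Nlrp4b (1.20 ± 0.41, adjusted p = 0.0279) and Nlrp9b (1.43 ± 0.56, adjusted p = 0.0492) were called as well. Nlrp4e (1.26, adjusted p = 0.0645), Nlrp2 (0.66, adjusted p = 0.154) and Nlrp4c (-0.24, adjusted p = 0.719) were not.

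These calls depended on the scaling and on the collections included. With total counts only, Nlrp9a (1.43, adjusted p = 0.0264) and Nlrp14 (0.45, adjusted p = 0.0471) were called and no other member, the median of all genes moved from 0.13 to -0.29, and 409 of 2283 called genes (21.2% of those tested) were higher in place of 1885 of 2999. With the replicate number as a block 4 members were called (Nlrp14, Nlrp4b, Nlrp9a and Nlrp9c), against 31.9% of all genes. Without replicate 3, 1 member was called, Nlrp14 (0.81, adjusted p = 0.0308), and Nlrp4f and Nlrp4a had log2 fold changes of -0.092 and -0.043, with 18.0% of all genes called. Without replicate 1 none was called, and 1 of 10544 genes was (0.00948%). In that setting 9 of 10 members and 2261 of all genes had an unadjusted p under 0.05. The members' median log2 fold change was 2.44 there, with all 10 positive, and that of all genes 0.033.

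Replicate 3 of the anti-SMARCA5 embryos stood apart. Its 7 libraries had summed Nlrp levels of 1300 CPM in the lowest (well D05), and of 2746 to 5564 CPM in the other 6, against at most 1952 CPM in the 17 libraries of replicate 1 and 1871 CPM in the 7 of replicate 2. Nlrp9a lay at 15.5, 32.6, 45.6, 75.0 and 75.8 CPM in the 5 uninjected libraries of replicate 3 and between 135 and 719 CPM (median 573) in the 7 anti-SMARCA5 libraries. Nlrp4f lay at 71.2, 74.4, 126, 127 and 131 CPM against 204 to 1789 CPM (median 720), and Nlrp9c at 118, 121, 147, 182 and 220 CPM against 283 to 1258 CPM (median 743). For these 3 genes every anti-SMARCA5 library of replicate 3 was above every uninjected one. The share of all genes that separate in this way was not counted, so the separation is no result about the members. Against the IgG libraries of replicate 3 the ranges of all 3 genes overlapped. There 6 of 7 anti-SMARCA5 libraries lay above the highest IgG library for Nlrp9a and for Nlrp4f, and 2 for Nlrp9c. Summed Nlrp levels reached 2837 CPM in the IgG libraries of replicate 3. Against uninjected embryos within replicate 3, 26.7% of 8697 genes were called.

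Within replicate 3, 8 members were called against uninjected embryos, against 26.7% of 8697 genes: Nlrp9a (3.86, adjusted p = 0.00172), Nlrp4f (3.59, adjusted p = 0.00172), Nlrp9c (2.98, adjusted p = 0.00172), Nlrp4a (3.16, adjusted p = 0.00507), Nlrp9b (3.38, adjusted p = 0.00554), Nlrp14 (1.59, adjusted p = 0.00983), Nlrp4b (2.51, adjusted p = 0.0135) and Nlrp4e (3.32, adjusted p = 0.0162). Against IgG in the same replicate, 4 were called (Nlrp4f 2.64, adjusted p = 0.00465; Nlrp9b 2.50, adjusted p = 0.00486; Nlrp9a 2.22, adjusted p = 0.0108; Nlrp4a 2.25, adjusted p = 0.0246), against 16.5% of genes. Within replicate 1, none was called against IgG, where 0.857% of genes were. There 0 members and 2396 of 10507 genes had an unadjusted p under 0.05. Against uninjected embryos 1 member was called within replicate 1, Nlrp14 (0.80, adjusted p = 0.0413), with 15.6% of genes called. The difference between replicates 3 and 1 in the effect against uninjected embryos was itself called for 6 members, Nlrp4f (3.56, adjusted p = 0.000501), Nlrp9c (2.81, adjusted p = 0.00137), Nlrp4a (3.34, adjusted p = 0.0016), Nlrp9a (3.27, adjusted p = 0.00759), Nlrp4e (3.36, adjusted p = 0.0127) and Nlrp9b (3.36, adjusted p = 0.0142), where 12.6% of 10283 genes differed and 4.41% in this direction. Against IgG edgeR called it for Nlrp4f alone (2.66, adjusted p = 0.00854), where 0.366% of genes differed, and DESeq2 for Nlrp4f and Nlrp9b, where 2.70% did.

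**Figure D5:**
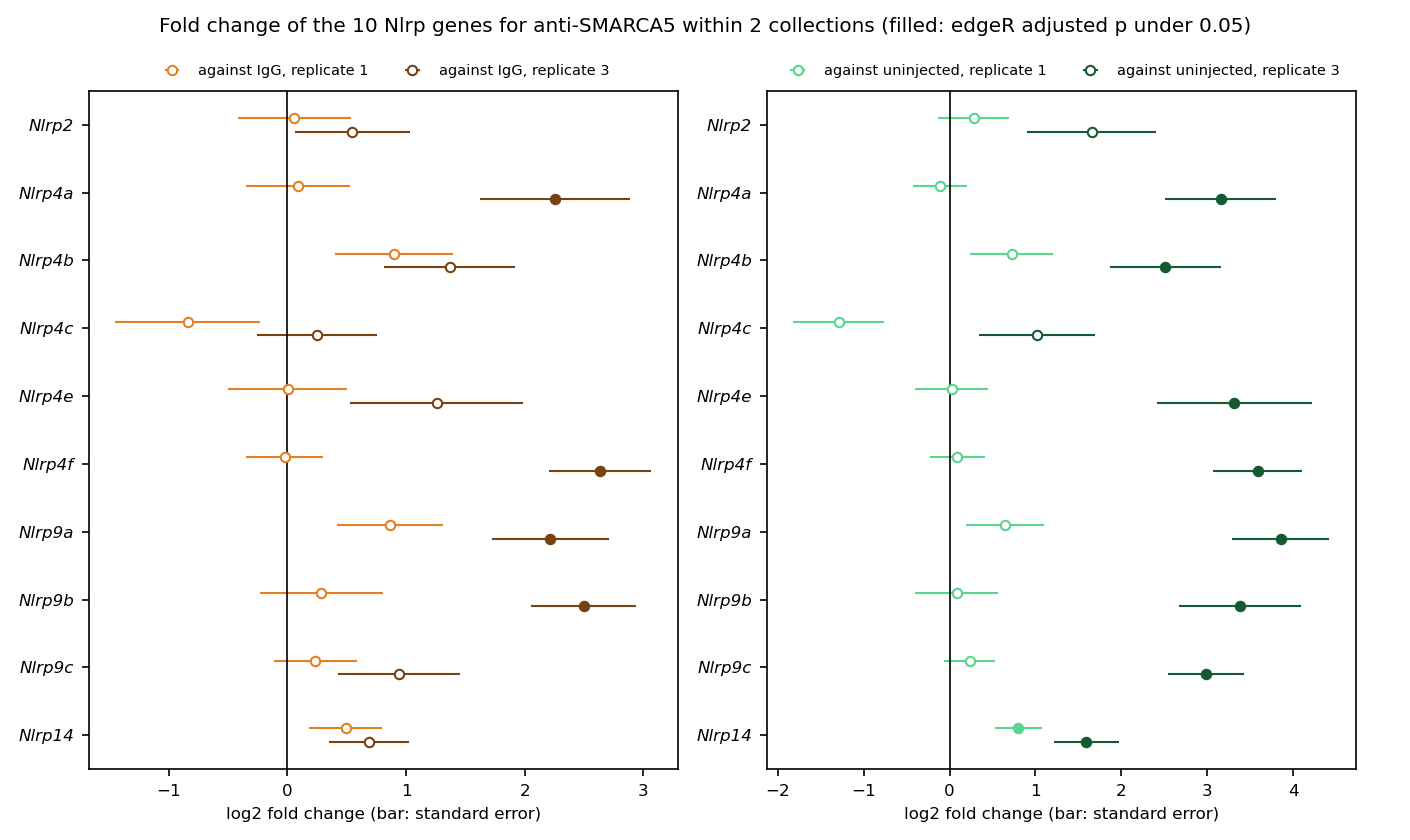
Log2 fold change ± SE of the 10 members for anti-SMARCA5 against IgG (left) and against uninjected (right), fitted within replicate 1 and within replicate 3. Against uninjected embryos 1 member was called in replicate 1 (15.6% of all genes called) and 8 in replicate 3 (26.7%).

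Other values moved with replicate 3. Its anti-SMARCA5 libraries held 39.3 to 422 CPM of 2-cell stage genes (median 262), against 103 to 3394 CPM in replicate 1 (median 1876), 968 to 2304 CPM in uninjected and 100 to 3188 CPM in IgG libraries of replicate 3. Maternal transcripts summed to 9316 to 36151 CPM (median 14911) there, against 3116 to 15023 CPM in replicate 1 (median 6452), 3615 to 33205 CPM in IgG (median 13413) and 4101 to 21563 CPM in uninjected libraries of replicate 3 (median 7071). Smarca5 RNA lay between 37.4 and 518 CPM (median 134), against medians of 387 CPM in replicate 1 and of 624 and 503 CPM in IgG and uninjected libraries of replicate 3. Trim21 lay between 207 and 3587 CPM, against 266 to 6125 CPM in replicate 1. Total counts (951489 to 4009610) spanned those of replicate 1 (989287 to 2321338). The part of these differences in the Nlrp values was not tested. Without the library with 0 Trim21 counts, 0 members were called against IgG (5.02% of genes) and 7 against uninjected embryos (28.0%).

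Between the control groups, IgG and uninjected, edgeR called none of the 10 members and none of 9915 genes (0.0%). Of the members, 4 (Nlrp14, Nlrp4e, Nlrp9a and Nlrp9c) had an unadjusted p under 0.05, as had 1440 of all 9915 genes. DESeq2 called Nlrp9c (adjusted p = 0.0399) and 2.65% of genes. The IgG group joins replicate 1, with 0 Trim21 counts, and replicate 3, mostly with Trim21, and the median log2 fold change of the members was -0.077 without replicate 3 and 1.09 without replicate 1. A p above the threshold does not show that the groups were alike, and all 10 log2 fold changes were positive with TMM scaling, whereas those of Nlrp4a, Nlrp4b, Nlrp4c and Nlrp9b were below 0 with total counts only.

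Across libraries, most pairs of members were positively correlated within a group, as a description. Over the 45 pairs of members the median Spearman rho was 0.58 in 22 wild-type, 0.39 in 28 deletion, 0.35 in 15 uninjected, 0.39 in 20 IgG and 0.53 in 31 anti-SMARCA5 libraries, and 39 to 45 of the 45 pairs were positive in each group. The closest pair of each group was Nlrp4b with Nlrp4f in wild type (0.83) and maternal deletion (0.85), Nlrp4f with Nlrp9c in uninjected (0.84), Nlrp4a with Nlrp9c in IgG (0.78) and Nlrp9a with Nlrp9c in anti-SMARCA5 embryos (0.86). These values pool collections whose levels differ. Within the 10 collections of at least 7 libraries, the median rho lay between 0.27 and 0.58 and 34 to 42 of the 45 pairs were positive. The lowest pair reached -0.79, in wild type of replicate 1. How common such values are among other pairs of genes was not tested. The members also share library, depth and, in part, sequence. Outside the family, the genes with the highest rank correlation to the members' mean log2(CPM + 1) in both tables (50 and 66 libraries, 5016 genes considered) were Orc5, a subunit of the origin recognition complex (0.81 and 0.81), Gm13103 (0.88 and 0.80), Immp1l, a mitochondrial inner membrane peptidase subunit (0.79 and 0.78), Nuf2, a kinetochore component (0.87 and 0.77), and Gm13023 (0.84 and 0.76).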

How the data were processed

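Raw counts for each gene were deposited by the authors in 2 tables, 1 for each experiment, with no normalization. Per the submitters' processing notes, reads were trimmed with Trim Galore 0.6.5 and cutadapt 2.3 and aligned with HISAT2 2.1.0 to GRCm38. The counting program and its handling of strand and of reads that match several genes are not given in the sources used here. Of the 25965 lines of each table, lines with the same identifier (57 identifiers) were summed, which left 25900 genes. Groups and replicate numbers came from the sample labels. The series holds 138 libraries, of which 135 are from embryos and 3 from empty wells. Embryo libraries with under 100000 counts (19, including all 6 IgG libraries of replicate 2) were left out, which kept 116.

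Each comparison was fitted across all genes with edgeR 4.0.16 in R 4.3.3 (TMM scaling, filterByExpr filter, robust quasi-likelihood F test, Benjamini-Hochberg adjustment over all genes tested). Only the groups compared entered a fit, and the replicate number did not. The standard error is the size of the log2 fold change divided by the square root of F. Adjusted p-values under 0.05 were called. The alternatives were DESeq2 1.42.0, total counts in place of TMM, no low-count filter, the replicate number as a block, each replicate number left out, libraries of at least 500000 counts, and leaving out wells that go against their label. The within-replicate fits and interactions of the TrimAway experiment, and leaving out well C02, were chosen after seeing the data. The script was tested on simulated counts. Exon lengths came from GENCODE, promoters from RefSeq (GRCm38.p6), and coding sequences were aligned with mafft 7.526.

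All 10 members are named whatever their values. Of the other NLR genes and the subcortical maternal complex the tested genes are named, and of other lists counts with up to 4 genes of high mean CPM. The 5 genes most like the members were ranked by the lower of the Spearman correlations in the 2 tables, among genes with a mean log2(CPM + 1) of at least 4 in both. The members, gene lists and tests were chosen with earlier results of these data known. Replicate numbers name pools of embryos, per the design text, and each pair of groups shares 2 numbers, so pairing was used only as an alternative. The deviations of same-numbered group means correlated across genes by 0.52 for deletion and wild type, 0.58 for anti-SMARCA5 and IgG, 0.07 for anti-SMARCA5 and uninjected and 0.42 for IgG and uninjected embryos.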

Additional observations from a re-analysis of the deposited data

Results flagged for a closer look

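The effect of anti-SMARCA5 against uninjected embryos differed between replicate 3 and replicate 1, by an interaction test over all genes, for 6 members. Of all genes 12.6% differed, 4.41% in this direction. On the log2 scale the effect was larger in replicate 3 by 3.56 for Nlrp4f, 3.36 for Nlrp4e, 3.36 for Nlrp9b, 3.34 for Nlrp4a, 3.27 for Nlrp9a and 2.81 for Nlrp9c. Against IgG the effect on Nlrp4f was larger in replicate 3 by 2.66, where 0.366% of genes differed. The effect on Nlrp14 was larger in maternal deletion against wild type than in anti-SMARCA5 against IgG, by 1.19, where 19.2% of genes differed. For Nlrp14 this last difference stayed called in each of 6 alternatives (1.18 to 1.41, adjusted p from 0.000354 to 0.0193). These alternatives called 11.7% to 28.6% of all genes, so a difference as such was common. The median of Nlrp14 was 120 CPM in wild type and 434 CPM in IgG, so the control levels differed as well.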

How the results depend on the processing

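For maternal deletion against wild type, 8 members were called (56.6% of genes) and 4 among libraries of at least 500000 counts (41.3%). Leaving out replicate 1 called 5 (39.9%) and leaving out replicate 2 called 6 (43.8%). For anti-SMARCA5 against IgG, 0 were called in the fit reported (3.03% of genes), 2 with DESeq2 (12.3%) and 4 with the replicate block (25.8%). In replicate 3 alone 4 were called (16.5%), and 0 to 1 when a replicate number was left out (0% to 5.85%). Against uninjected embryos 7 were called (27.9%), 4 with the replicate block (31.9%) and 2 with total counts only (21.2%). In replicate 1 alone 1 was called (15.6%) and in replicate 3 alone 8 (26.7%). Leaving out replicate 1 called 0 (1 of 10544 genes), leaving out replicate 2 called 8 (28.4%) and leaving out replicate 3 called 1 (18.0%). DESeq2 called 1 for IgG against uninjected and 2 for the difference between replicates against IgG, where edgeR called 0 and 1. DESeq2 also called more of all genes there (2.65% and 2.70%, against 0.0% and 0.366%). The interaction of the deletion with replicate called 0, and 1 without wells A04, G05 and H05, where the share of all genes called went from 0.763% to 12.6%. The replicate block changed no other count by over 1.5 times.

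Some log2 fold changes that were not called, or were called over all libraries, changed sign. Against IgG these were Nlrp4f in replicate 1 alone (-0.024) and when a replicate number was left out (-0.18 to 1.78), and Nlrp4c in replicate 3 alone (0.25). Against uninjected embryos they were Nlrp4a (-0.11 in replicate 1 alone), Nlrp4c (1.02 in replicate 3 alone) and, when a replicate number was left out, Nlrp4a (-0.043 to 2.41), Nlrp4f (-0.092 to 2.77) and Nlrp4c (-0.91 to 0.65). For IgG against uninjected they were, with total counts only, Nlrp4a (-0.033), Nlrp4b (-0.013), Nlrp4c (-0.21) and Nlrp9b (-0.078), and when a replicate number was left out Nlrp4a (-0.20 to 0.98), Nlrp4b (-0.16 to 1.23), Nlrp4c (-0.43 to 0.80), Nlrp9a (-0.23 to 1.70) and Nlrp9b (-0.20 to 0.93). In the interaction of the deletion with replicate, Nlrp2 (-0.67) and Nlrp4e (-0.16) changed sign among libraries of at least 500000 counts, and Nlrp4a (0.31) without wells A04, G05 and H05. Foxo3 did so in the deletion when a replicate number was left out (-0.20 to 1.20). The cause was not tested. Of all values for single genes under the alternatives, 587 kept direction and side of the threshold, 56 lost a call, 22 gained one and 21 changed sign. Low counts limit Nlrp4c most, and not in shallow libraries alone. It had 0 counts in a wild-type library of 9761208 counts and in a deletion library of 7236695 counts (replicate 2, wells F02 and D03). With no IgG library of replicate 2 that collection has no control.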

Other observations

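The 3 wells without an embryo held totals of 823, 1875 and 453 counts, of which 1, 7 and 0 fell on the 10 members. Their number and depth allow no level to be given. The pseudogene Nlrp4g, outside the 10 members, ran from 0 to 247 CPM in wild type (median 15.0), from 0 to 468 CPM in maternal deletion (median 133) and from 62.2 to 664 CPM in the anti-SMARCA5 libraries of replicate 3 (median 229), against 4.10 to 103 CPM in those of replicate 1 (median 39.7). Against uninjected embryos it was called higher by edgeR's quasi-likelihood test (log2 fold change 2.41, adjusted p = 0.00214), the 1 called gene of 7 tested NLR genes outside the family there. None of the 5 tested genes of the subcortical maternal complex was called in that comparison, and 10 of 26 maternal transcripts were higher and 2 lower. Of all 10750 genes tested there, 1885 (17.5%) were higher and 1114 lower.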
